A study of Homo sapiens with 16 samples.

Results

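The insulin-like growth factor (IGF) axis was examined as 10 genes, taken by symbol from a table of 25728 gene symbols: the ligand IGF2, the receptors INSR, IGF1R and IGF2R, the binding proteins IGFBP2, IGFBP4 and IGFBP5, and the receptor substrates IRS1, IRS2 and IRS4. All 10 were found. RNA had been sequenced from Kelly and LAN-1, 2 human neuroblastoma cell lines in which MYCN is amplified. Cells of each line had received GSK126, which blocks the histone methyltransferase EZH2, at 2 uM, or the solvent DMSO, for 2 or 5 days. The 8 groups, made of both treatments on both days in both lines, held 2 libraries each. Nothing in the labels says that duplicates came from separate cultures, so the p-values cover no more than the spread between libraries, which may be technical.

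IGF2 is a growth factor of fetal tissues that signals through the receptor tyrosine kinase IGF1R and through a splice form of the insulin receptor INSR, while IGF2R, which has no kinase, takes IGF2 into lysosomes. Binding proteins outside the cell carry IGFs and limit or prolong their access to receptors, and IRS proteins dock on the activated receptors and recruit PI3-kinase. EZH2 is the enzyme of the Polycomb complex PRC2, whose repressive mark H3K27me3 is found in mammals mainly at promoters rich in the dinucleotide CG.

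The libraries held 912095 to 1666190 counts, the smallest being LAN-1 with GSK126 at day 5, replicate 2. Duplicates differed by 1.108 to 2.037 times the variance of counting alone, most in LAN-1 with GSK126 at day 5 and, at 1.812, in Kelly with DMSO at day 2. Levels are given as CPM, counts per 1000000 of the library's TMM-scaled total, and changes as log2 fold changes ± SE from edgeR's quasi-likelihood test with n = 2 libraries per group. A gene was called, and is said to have risen or fallen, where the p adjusted over all 11863 tested genes was under 0.05. Where groups are said not to overlap, this only describes 2 libraries against 2, which can separate without a difference. How often genes in general separated was not counted. Among the 9 markers of adrenergic neuroblastoma, all had reads in both lines, but TH had only 1 count under each treatment in LAN-1 at day 2. RNA of EZH2 itself was not called in any of the 4 comparisons of GSK126 with DMSO, with log2 fold changes between -0.33 ± 0.13 and -0.13 ± 0.11.

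The promoters of the tyrosine kinase receptors INSR and IGF1R and of IGFBP5 are shown because INSR rose in Kelly, IGF1R in LAN-1 and IGFBP5 in both lines under the PRC2 inhibitor. Each runs from 250 bases before to 50 bases after the start of the gene, 5′ to 3′ on the gene's own strand, with each CG dinucleotide in capitals. They are RefSeq sequences of GRCh38.p14, matched by symbol, at chr19:7294365-7294664 (minus strand) for INSR, chr15:98648289-98648588 (plus strand) for IGF1R and chr2:216695500-216695799 (minus strand) for IGFBP5.
INSR: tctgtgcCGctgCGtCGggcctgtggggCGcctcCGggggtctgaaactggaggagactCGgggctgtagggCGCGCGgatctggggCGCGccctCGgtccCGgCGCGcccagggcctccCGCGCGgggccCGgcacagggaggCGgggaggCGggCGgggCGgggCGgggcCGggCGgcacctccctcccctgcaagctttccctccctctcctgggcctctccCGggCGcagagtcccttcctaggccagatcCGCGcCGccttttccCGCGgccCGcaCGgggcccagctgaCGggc
IGF1R: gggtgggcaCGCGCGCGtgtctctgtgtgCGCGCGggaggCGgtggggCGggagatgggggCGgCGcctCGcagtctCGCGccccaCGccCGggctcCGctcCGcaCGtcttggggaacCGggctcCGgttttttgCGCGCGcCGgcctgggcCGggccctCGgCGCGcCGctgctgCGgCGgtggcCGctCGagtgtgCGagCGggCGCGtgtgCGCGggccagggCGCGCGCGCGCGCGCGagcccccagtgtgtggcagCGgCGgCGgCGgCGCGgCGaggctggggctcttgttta
IGFBP5: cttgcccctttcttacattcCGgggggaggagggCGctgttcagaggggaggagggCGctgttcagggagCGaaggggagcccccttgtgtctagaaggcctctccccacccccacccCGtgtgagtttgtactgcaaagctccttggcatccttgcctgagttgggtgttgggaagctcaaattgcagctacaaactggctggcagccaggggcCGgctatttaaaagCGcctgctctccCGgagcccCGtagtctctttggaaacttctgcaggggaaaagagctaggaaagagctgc
The INSR window held 36 CG dinucleotides, more than 87.3% of 35116 promoters of the same length, whose median was 14. The IGF1R window held 55, more than 99.6% of promoters, and the IGFBP5 window held 9, more than 41.6%. The GC box GGGCGG, searched on both strands as GGGCGG or CCGCCC with overlapping matches counted, occurred 4 times in the INSR window, 2 times in the IGF1R window and 0 times in the IGFBP5 window. At least 1 GC box was present in 45.0% of the promoters. Tested members that GSK126 did not change by a call in either line also had many CG: 50 in IRS2 (more than 98.7% of promoters), 47 in IRS1 (97.6%) and 41 in IGF2R (93.3%). Of the other called members, IGFBP4 had 30 (77.6%) and IGFBP2 6 to 28 over its listed starts. A link between CG content and the changes was not tested. These letters describe the windows only, and no chromatin was measured in these libraries. IGF2 is named only.

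Under GSK126, members were called at day 5 and none was called at day 2 by edgeR, although INSR in Kelly had 12 reads in GSK126 libraries and 0 in DMSO libraries at day 2. In Kelly at day 5, IGF2 and IGFBP2 fell, IGFBP5 rose and INSR, which had no read in any DMSO library of that line, rose. In LAN-1 at day 5, IGFBP5, IGFBP4, IGFBP2 and IGF1R rose and no member fell. Of the 10 members, 9 passed the filter on low counts and were tested. In the fit to all libraries, INSR passed through its LAN-1 libraries, which held 151 to 236 counts each whatever the treatment. IRS4, a further docking protein of the IRS family, had 7 counts in all 16 libraries together and at most 3 in a library, and was not tested.

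**Figure D1:**
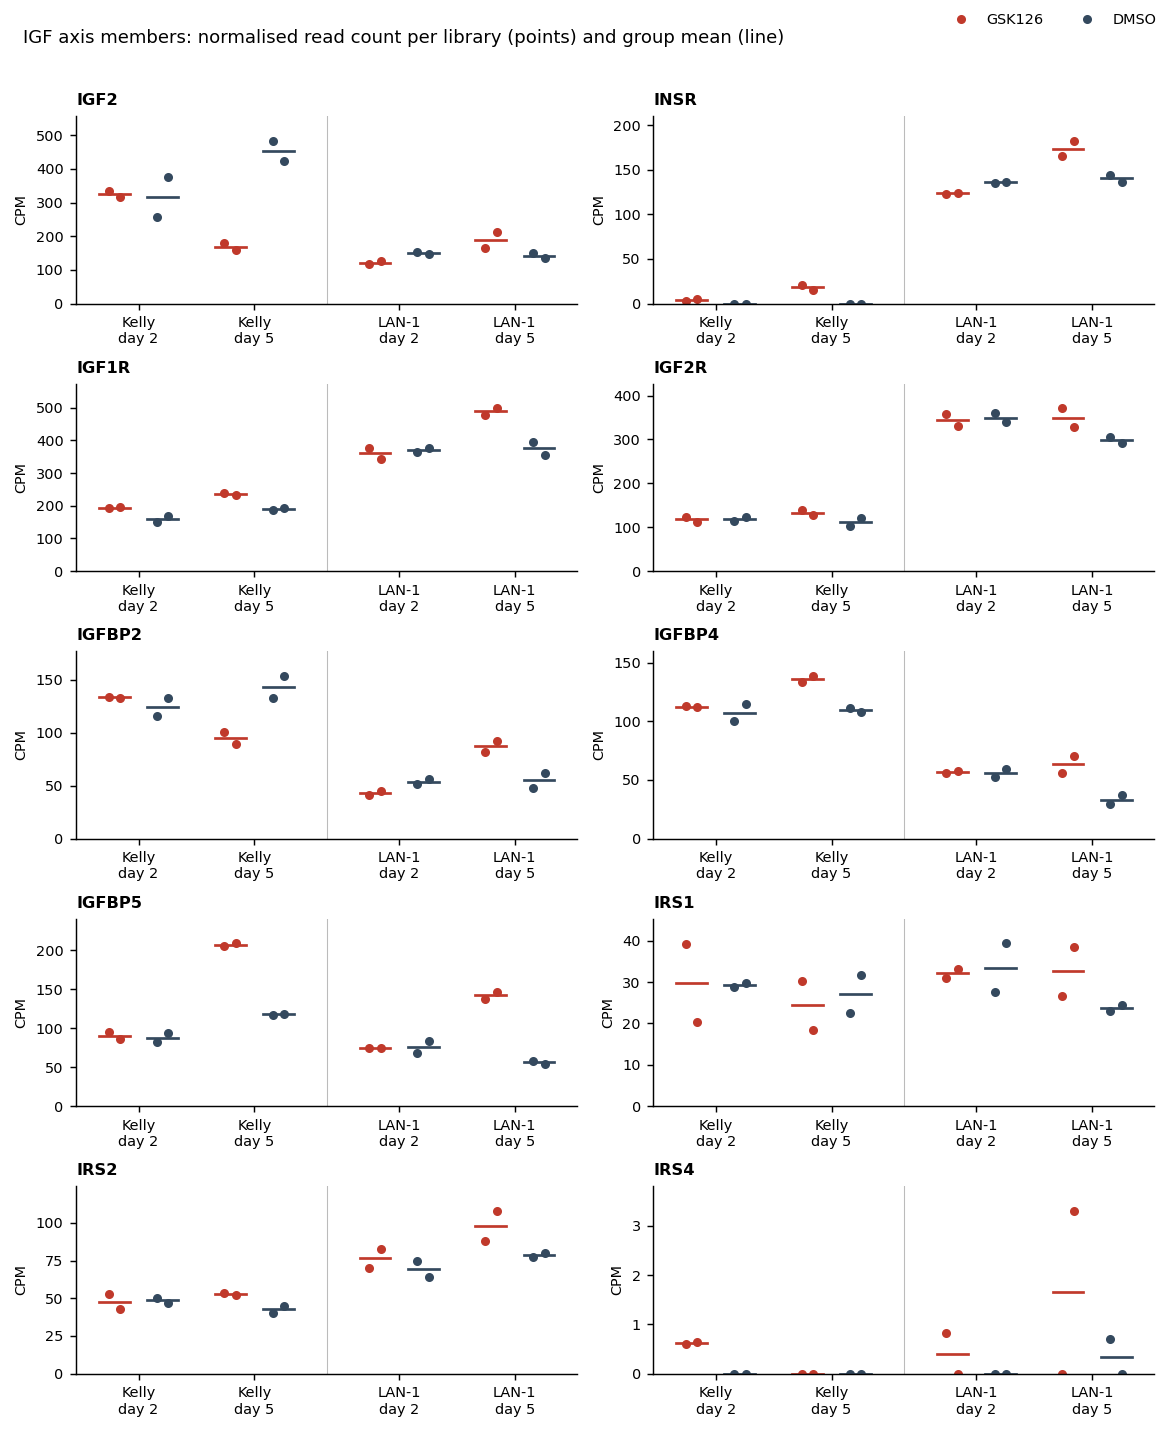
Normalised read count (CPM, linear axes that start at 0) of each of the 10 members in each library (points) with the group mean (line), for Kelly and LAN-1 at day 2 and day 5, GSK126 left of DMSO. IGF2 and INSR in Kelly at day 5 stand apart from their DMSO libraries in opposite directions, while IGFBP5 at day 5 lies higher under GSK126 in both lines.

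IGF2, the ligand, lies on chromosome 11 (GRCh37, 2150342 to 2179621, minus strand) and fell in Kelly. At day 5 it had 180 and 159 CPM in the GSK126 libraries of Kelly, against 484 and 423 CPM in the DMSO libraries. The groups lay far apart, with the GSK126 libraries under all 6 other Kelly libraries. The log2 fold change was -1.42 ± 0.11 (edgeR adjusted p = 8.62e-19). At day 2, IGF2 had 335 and 316 CPM in the GSK126 libraries of Kelly, against 258 and 376 CPM in the DMSO libraries. These groups overlapped, and the log2 fold change of 0.02 ± 0.10 was not called (adjusted p = 0.995). The GSK126 effect on IGF2 in Kelly was lower at day 5 than at day 2, with a log2 difference of -1.44 ± 0.16 (adjusted p = 2.08e-11). In LAN-1 the effect on IGF2 was 0.69 ± 0.19 higher at day 5 than at day 2, which was not called (adjusted p = 0.0648). It was called in 7 of 25 alternatives, among them no filter (adjusted p = 0.0378) and a fit to LAN-1 alone (adjusted p = 0.0361), and the adjusted p over all of them was 0.005 to 0.42.

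In LAN-1, IGF2 went the other way, without a call. At day 5 it had 167 and 214 CPM in the GSK126 libraries of LAN-1, against 149 and 135 CPM in the DMSO libraries. The groups did not overlap, but the GSK126 libraries were far apart. The log2 fold change of 0.39 ± 0.13 had an adjusted p of 0.088. Without the GSK126 replicate 1 the change was 0.58 and was called (adjusted p = 0.0122), without GSK126 replicate 2 it was 0.22 (adjusted p = 0.639), and it was also called without either Kelly DMSO library of day 2 (adjusted p = 0.0337 and 0.0483). At day 2, IGF2 had 117 and 125 CPM in the GSK126 libraries of LAN-1, against 152 and 147 CPM in the DMSO libraries, which did not overlap. That log2 fold change, -0.30 ± 0.14, was not called (adjusted p = 0.755). The GSK126 effect at day 5 was lower in Kelly than in LAN-1, with a log2 difference of -1.81 ± 0.18 (adjusted p = 1.79e-13).

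Over the 8 groups, IGF2 was highest in Kelly with DMSO at day 5, at 453 ± 43.7 CPM (SD, n = 2, as for every mean here). Kelly with GSK126 at day 2 (325 ± 13.5 CPM) and with DMSO at day 2 (317 ± 83.5 CPM) came next and overlapped each other. LAN-1 with GSK126 at day 5 (190.1 ± 33.5 CPM) and Kelly with GSK126 at day 5 (169 ± 14.6 CPM) also overlapped. LAN-1 with DMSO at day 2 (149.9 ± 3.56 CPM) and at day 5 (142 ± 9.71 CPM) differed by less than their spread, and LAN-1 with GSK126 at day 2 was lowest (121 ± 5.52 CPM). Between the DMSO groups, IGF2 was higher in Kelly than in LAN-1 at day 2 (1.10 ± 0.12, adjusted p = 3.42e-14) and at day 5 (1.66 ± 0.12, adjusted p = 3.88e-24). After 5 days of GSK126, the IGF2 level of Kelly lay within the range of the LAN-1 libraries. In these bulk libraries, fewer cells that make a transcript and less of it per cell cannot be told apart.

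The locus of IGF2 is shared with other transcripts. The strand setting of the counting was not given in the sources used here, so reads of IGF2 and of its antisense gene IGF2-AS cannot be told apart where they overlap. IGF2-AS had 166 counts in all libraries together, and the read-through gene INS-IGF2 and the insulin gene INS had 0. IGF2-AS had 6.36 ± 1.44 CPM in Kelly with GSK126 at day 5 and 14.6 ± 1.66 CPM in Kelly with DMSO at day 5 (-1.21 ± 0.42, adjusted p = 0.0818, not called). With the counts of IGF2, IGF2-AS and INS-IGF2 summed, the IGF2 change in Kelly at day 5 was -1.41 ± 0.11 (adjusted p = 2.25e-19). With so few counts added, the sum could hardly differ from IGF2 alone.

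Of 23 neighbours of IGF2 on 11p15.5, a region of imprinted genes, 10 were tested. In Kelly at day 5, 0 were called higher and 1 lower, against 391 (3.30%) higher and 190 (1.60%) lower of all tested genes. The gene that fell was TH, tyrosine hydroxylase, which starts the making of catecholamines, with 133 ± 10.1 CPM in GSK126 libraries and 276 ± 24.5 CPM in DMSO libraries (-1.04 ± 0.12, adjusted p = 8.26e-12). TH in LAN-1 at day 2 had 1 count with GSK126 and 1 with DMSO. In LAN-1 at day 5, 1 neighbour was called higher and 0 lower, against 291 (2.45%) higher and 143 (1.21%) lower of all genes. It was KCNQ1OT1, a long RNA antisense to KCNQ1, with 84.3 ± 13.3 CPM in GSK126 libraries and 34.1 ± 7.86 CPM in DMSO libraries (1.31 ± 0.20, adjusted p = 5.27e-07), and DESeq2 gave it no adjusted p. H19, the RNA gene next to IGF2 that is imprinted in the opposite sense, had 2 counts with GSK126 and 2 with DMSO in Kelly at day 5. H19 in LAN-1 at day 5 had 288 ± 33.6 CPM in GSK126 libraries and 356 ± 3.43 CPM in DMSO libraries (-0.29 ± 0.10, adjusted p = 0.0939, not called). The median log2 fold change over the 10 neighbours was -0.19 in Kelly and 0.12 in LAN-1, against 0.01 and 0.00 over all tested genes.

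**Figure D2:**
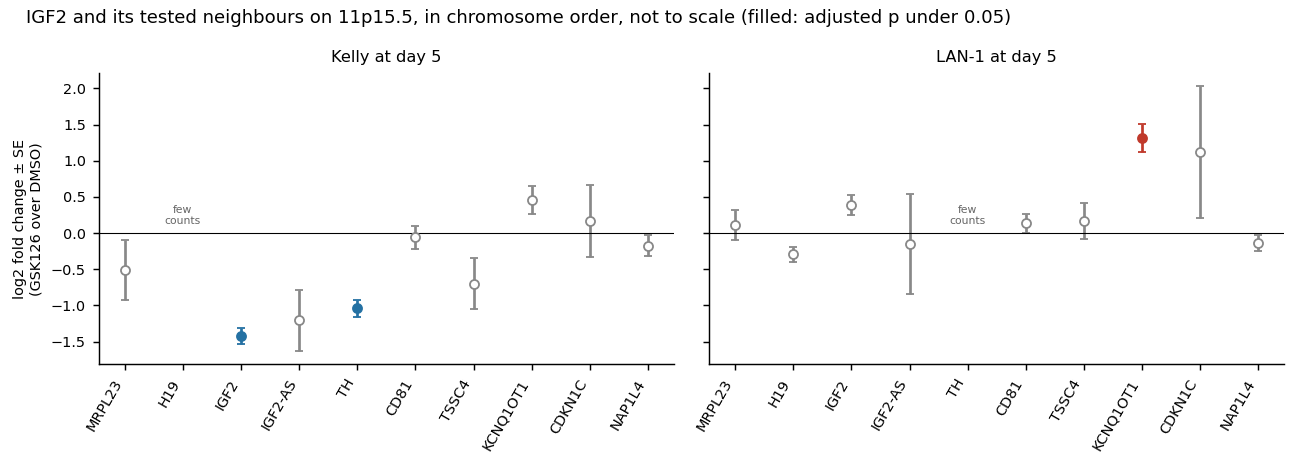
Log2 fold change ± SE (GSK126 over DMSO, n = 2 libraries per group) at day 5 for IGF2 and the tested 11p15.5 neighbours that the annotation holds, in chromosome order but not to scale. Filled points had an edgeR adjusted p under 0.05: IGF2 and TH, both lower, in Kelly, and KCNQ1OT1, higher, in LAN-1. Genes with 3 counts or fewer in a group are marked and not drawn.

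INSR, the insulin receptor, lies on chromosome 19 (GRCh37, 7112266 to 7294425, minus strand). At day 5 it had 26 and 20 counts in the GSK126 libraries of Kelly, or 21.3 and 15.3 CPM, against 0 and 0 counts in the DMSO libraries. Both GSK126 libraries thus had reads and neither DMSO library did. A count of 0 in these DMSO libraries together allows up to 1.01 CPM, taken as 3 counts over the group, so INSR was at least 18.1-fold higher (adjusted p = 5.51e-11). At day 2 it had 4 and 8 counts in the GSK126 libraries of Kelly, or 2.45 and 5.11 CPM, against 0 and 0 counts in the DMSO libraries. Against a floor of 1.10 CPM that is at least 3.41-fold higher, but the test did not call it (adjusted p = 0.0777). Such floors and all counting intervals cover counting error only.

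The day 5 and day 2 libraries of Kelly under GSK126 were then compared directly, a comparison chosen after seeing that INSR had no reads in DMSO on either day. INSR had 46 counts at day 5 and 12 at day 2, a ratio of 4.85 (95% counting interval 2.53 to 10.1, adjusted p = 7.53e-05). In LAN-1, INSR had 165 and 183 CPM in the GSK126 libraries of day 5, against 145 and 136 CPM in the DMSO libraries. The groups did not overlap, and the change of 0.29 ± 0.13 was not called (adjusted p = 0.207). At day 2 in LAN-1, it had 123 and 124 CPM in the GSK126 libraries, against 136 and 137 CPM in the DMSO libraries (-0.14 ± 0.13, adjusted p = 0.939).

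The level that INSR reached in Kelly with GSK126 at day 5, 18.3 ± 4.27 CPM, was 10.5% of its level in LAN-1 with GSK126 at day 5, 174 ± 12.6 CPM. Between the DMSO groups, INSR was at least 124-fold lower in Kelly than in LAN-1 at day 2 (adjusted p = 8.55e-40) and at least 140.1-fold lower at day 5 (adjusted p = 4.95e-41). Over the 8 groups, the order by level was LAN-1 with GSK126 at day 5, the LAN-1 DMSO groups of day 5 and day 2, whose libraries overlapped, LAN-1 with GSK126 at day 2, Kelly with GSK126 at day 5, Kelly with GSK126 at day 2, and the Kelly DMSO groups at 0.

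IGF1R, the main receptor for IGFs, lies on chromosome 15 (GRCh37, 99191768 to 99507759, plus strand) and rose in LAN-1. The GSK126 libraries of LAN-1 at day 5 had 479 and 499 CPM, against 395 and 356 CPM in the DMSO libraries. The groups did not overlap, and the log2 fold change was 0.37 ± 0.09 (adjusted p = 0.00747). The call was lost without DMSO replicate 2 (0.30, adjusted p = 0.193) or without GSK126 replicate 2 (0.35, adjusted p = 0.0594). Kelly had 238 and 234 CPM in the GSK126 libraries of day 5, against 188 and 193 CPM in the DMSO libraries, also without overlap. That change, 0.31 ± 0.11, was not called (adjusted p = 0.0818). It was called when libraries were scaled by their totals alone (adjusted p = 0.0372), with a minimum count of 30 (adjusted p = 0.0489) and without LAN-1 GSK126 day 5 replicate 2 (adjusted p = 0.0477). The GSK126 effects of Kelly and LAN-1 at day 5 differed by -0.07 ± 0.14 (95% interval -0.40 to 0.26, adjusted p = 0.908). At day 2, Kelly had 192 and 197 CPM with GSK126, against 151 and 168 CPM with DMSO (0.28 ± 0.11, adjusted p = 0.501, not called). The change in LAN-1 at day 2 was -0.05 ± 0.09 (adjusted p = 0.986). Between day 5 and day 2 the effect differed by 0.03 ± 0.16 in Kelly (95% interval -0.33 to 0.39) and by 0.42 ± 0.13 in LAN-1 (adjusted p = 0.151), neither called.

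IGF2R, the receptor that clears IGF2, lies on chromosome 6 (GRCh37, 160390114 to 160534539, plus strand) and was not called under GSK126 in either line. At day 5 it had 139 and 127 CPM in the GSK126 libraries of Kelly, against 102 and 121 CPM in the DMSO libraries (0.24 ± 0.13, adjusted p = 0.359). LAN-1 had 371 and 328 CPM in the GSK126 libraries of day 5, against 306 and 292 CPM in the DMSO libraries (0.23 ± 0.10, adjusted p = 0.205). The GSK126 libraries lay above the DMSO libraries in both lines. The effects of the lines differed by 0.01 ± 0.16 (95% interval -0.37 to 0.38, adjusted p = 1.0).

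**Figure D3:**
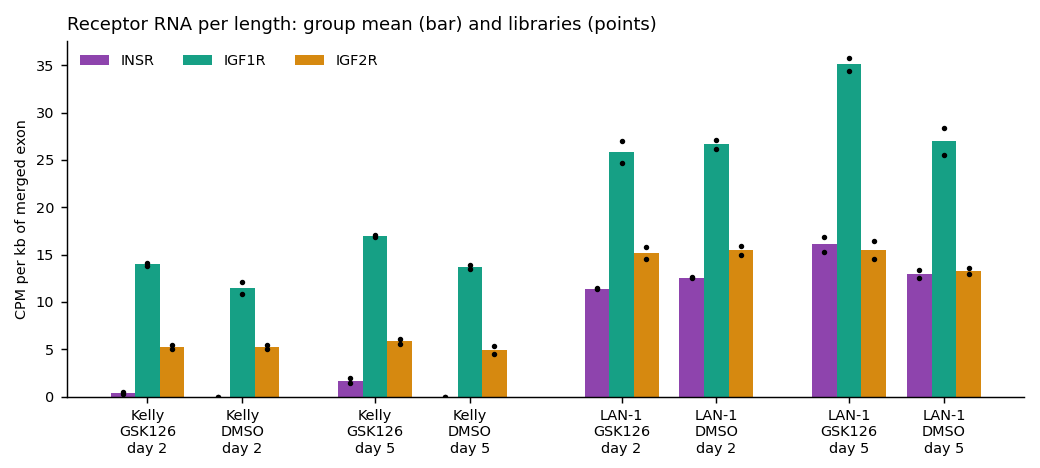
CPM per kb of merged exon for INSR, IGF1R and IGF2R in the 8 groups (bars are means, points are the 2 libraries; linear axis from 0). IGF1R is the highest of the 3 receptors in every group. INSR is at 0 in both DMSO groups of Kelly and between 11.4 and 16.1 in the LAN-1 groups.

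Per length of merged exon, IGF1R had the highest level of the 3 receptors in every group. This length takes in the exons of all annotated transcripts, and which of them were expressed was not measured. The annotation behind the counts is not known either, so comparisons between receptors depend on the lengths used. Before division by length, IGF1R and IGF2R lay close in LAN-1 with DMSO at day 2 (365 and 378 CPM against 360 and 339 CPM). They lay further apart in Kelly with DMSO at day 5 (188 and 193 CPM against 102 and 121 CPM). In Kelly with GSK126 at day 5 the mean level was 16.9 CPM per kb for IGF1R, 5.87 for IGF2R and 1.69 for INSR, and in Kelly with DMSO at day 5 it was 13.7 CPM per kb for IGF1R, 4.94 for IGF2R and 0 for INSR. In LAN-1 with GSK126 at day 5 it was 35.1 CPM per kb for IGF1R, 15.47 for IGF2R and 16.1 for INSR, and in LAN-1 with DMSO at day 5 it was 27.0 for IGF1R, 13.2 for IGF2R and 13.0 for INSR. INSR thus stood at 0.0997 of the IGF1R level in Kelly with GSK126 at day 5, and at 0.458 of it in LAN-1 with GSK126 at day 5. In DMSO the lines differed in all 3 receptors, each lower in Kelly: at day 5 the difference from LAN-1 was -0.98 ± 0.10 for IGF1R (adjusted p = 1.88e-15) and -1.42 ± 0.12 for IGF2R (adjusted p = 1.62e-21).

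IGFBP5, a carrier that binds IGFs in the extracellular matrix, lies on chromosome 2 (GRCh37, 217536828 to 217560272, minus strand) and rose in both lines. Its level at day 5 was 206 and 209 CPM in the GSK126 libraries of Kelly, against 117 and 118 CPM in the DMSO libraries. The duplicates were tight and the groups far apart (0.81 ± 0.12, adjusted p = 1.29e-07). The GSK126 libraries of LAN-1 at day 5 had 138 and 147 CPM, against 58.5 and 53.8 CPM in the DMSO libraries. Here too the groups did not overlap (1.33 ± 0.15, adjusted p = 4.36e-11). At day 2 the changes were 0.03 ± 0.14 in Kelly (adjusted p = 0.989) and -0.04 ± 0.16 in LAN-1 (adjusted p = 0.997). From day 2 to day 5 in DMSO, IGFBP5 changed by -0.44 ± 0.16 in LAN-1 and by 0.41 ± 0.14 in Kelly. Neither change was called by edgeR (adjusted p = 0.393 and 0.252). The GSK126 effect was larger at day 5 than at day 2 by 1.36 ± 0.22 in LAN-1 (adjusted p = 3.21e-05) and by 0.79 ± 0.19 in Kelly (adjusted p = 0.0207). The Kelly difference lost its call in DESeq2 (adjusted p = 0.28) and when any Kelly library other than DMSO day 2 replicate 1 was left out (adjusted p = 0.0516 to 0.209). The effects at day 5 differed between Kelly and LAN-1 by -0.51 ± 0.20 (95% interval -0.97 to -0.06), which was not called (adjusted p = 0.196).

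IGFBP2, a carrier of IGFs whose gene neighbours IGFBP5 on the opposite strand of chromosome 2 (GRCh37, 217497551 to 217529159, plus strand), moved in opposite directions in the lines. Kelly had 101 and 89.4 CPM in the GSK126 libraries of day 5, against 132 and 154 CPM in the DMSO libraries. The day 5 GSK126 libraries of LAN-1 had 81.8 and 92.6 CPM, against 48.1 and 62.2 CPM in the DMSO libraries. The groups did not overlap in either line, and after 5 days of GSK126 the levels of Kelly and LAN-1 overlapped. IGFBP2 fell in Kelly (-0.60 ± 0.14, adjusted p = 0.00159) and rose in LAN-1 (0.66 ± 0.17, adjusted p = 0.0114). The Kelly call was lost in DESeq2 (adjusted p = 0.0677) and without DMSO day 5 replicate 2 (-0.48, adjusted p = 0.138) or GSK126 day 5 replicate 2 (-0.52, adjusted p = 0.0897). The LAN-1 call was lost without DMSO day 5 replicate 1 (0.47, adjusted p = 0.348) or GSK126 day 5 replicate 2 (0.58, adjusted p = 0.127). The difference between the lines, -1.26 ± 0.22, was called (adjusted p = 4.13e-05) and stayed called in all 23 alternatives, with adjusted p up to 0.00937. At day 2 the changes were 0.09 ± 0.13 in Kelly (adjusted p = 0.922) and -0.32 ± 0.19 in LAN-1 (adjusted p = 0.824).

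IGFBP4, a carrier that inhibits IGF action until proteases cleave it, lies on chromosome 17 (GRCh37, 38599702 to 38613977, plus strand) and rose in LAN-1. At day 5 it had 56.0 and 70.5 CPM in the GSK126 libraries of LAN-1, against 29.2 and 36.98 CPM in the DMSO libraries. The groups did not overlap (0.91 ± 0.20, adjusted p = 0.002). The call was lost without DMSO day 5 replicate 1 (0.74, adjusted p = 0.137) or GSK126 day 5 replicate 2 (0.77, adjusted p = 0.0783). The DMSO libraries moved as well: in LAN-1, IGFBP4 was lower in DMSO at day 5 than in DMSO at day 2 (33.1 ± 5.46 and 55.8 ± 4.65 CPM), while it had 63.2 ± 10.3 CPM with GSK126 at day 5 and 57.2 ± 1.21 CPM with GSK126 at day 2. Kelly had 134 and 139 CPM in the GSK126 libraries of day 5, against 111 and 108 CPM in the DMSO libraries, with no overlap and no call (0.32 ± 0.13, adjusted p = 0.174).

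IRS1 and IRS2, the docking proteins, were not called under GSK126 in either line on either day. IRS1, on chromosome 2 (GRCh37, 227596028 to 227664536, minus strand), had 30.3 and 18.3 CPM in the GSK126 libraries of Kelly at day 5, against 22.4 and 31.6 CPM in the DMSO libraries. These overlapped, and over the 4 comparisons its log2 fold changes were -0.18 to 0.41 with adjusted p from 0.477 to 1.0. The change of IRS1 in LAN-1 at day 5 had a 95% interval from -0.23 to 1.04. IRS2, on chromosome 13 (GRCh37, 110405042 to 110438930, minus strand), had 88.1 and 108 CPM in the GSK126 libraries of LAN-1 at day 5, against 77.3 and 79.8 CPM in the DMSO libraries. Its log2 fold changes were -0.02 to 0.30 with adjusted p from 0.335 to 0.997. IRS4, on chromosome X (GRCh37, 107963176 to 107979793, minus strand), had reads in 5 libraries. In LAN-1 with GSK126 at day 5, 1 library held 3 counts and the other 0.

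**Figure D4:**
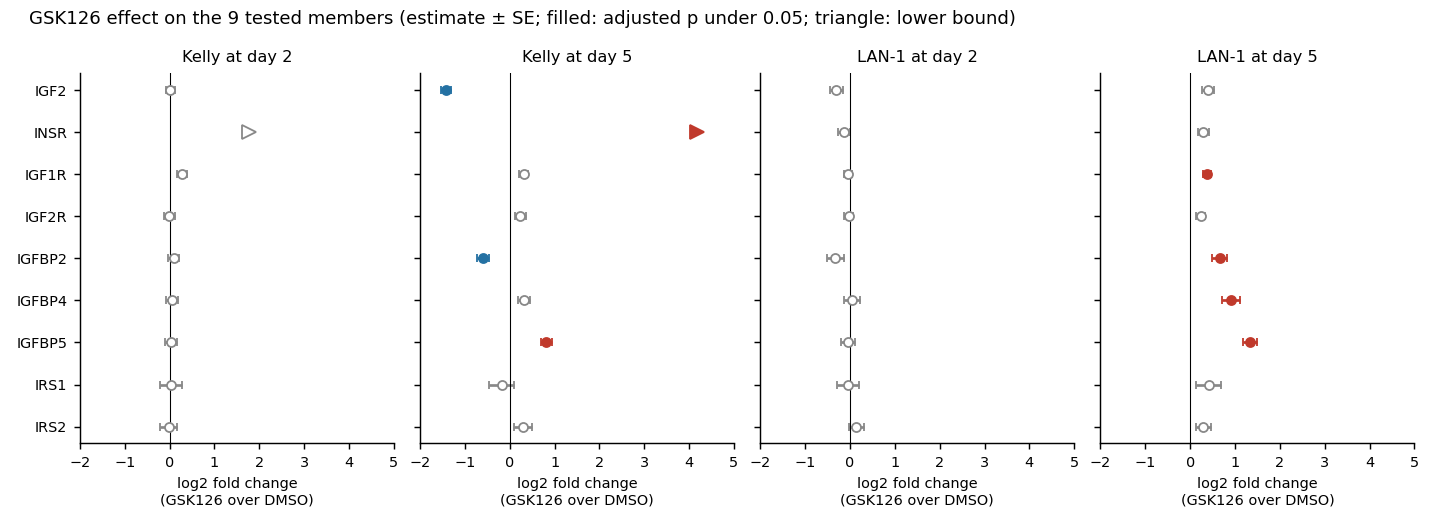
Log2 fold change ± SE (GSK126 over DMSO, n = 2 libraries per group) of the 9 tested members in each line and on each day. Filled symbols had an edgeR adjusted p under 0.05, all of them at day 5; triangles mark the lower bound for INSR in Kelly, where DMSO libraries had 0 counts.

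Counted together, 4 of the 9 tested members were called in Kelly at day 5, 2 higher and 2 lower, where 4.90% of all tested genes were called (581 genes). The median log2 fold change of the 9 was 0.29, against 0.01 over all genes, and it is the same with INSR set to its fold over the floor. In LAN-1 at day 5, 4 members were called, all higher, where 3.66% of genes were called (434 genes). All 9 estimates were positive there, with a median of 0.39 against 0.00 over all genes. Without LAN-1 GSK126 day 5 replicate 2, the smallest library, only IGFBP5 was still called. At day 2, edgeR and DESeq2 called 0 members in either line, where edgeR called 0.177% of genes in Kelly and 0.152% in LAN-1. At an unadjusted p under 0.05, 2 members (INSR and IGF1R) passed in Kelly at day 2 and 1 (IGF2) in LAN-1.

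Between lines, the GSK126 effect at day 5 was called different for 3 members, where 1.85% of genes were called. IGF2 and IGFBP2 were lower in Kelly, as were 0.919% of genes, and INSR was higher, as were 0.936%. At day 2 it was called for 0 members by edgeR and DESeq2 (2 at an unadjusted p under 0.05), where 0.00843% of genes were called. Between days, the effect was called different for 2 members in Kelly, IGF2 and IGFBP5, where 0.379% of genes were called. For INSR in Kelly that difference could not be estimated, because the DMSO libraries held 0 counts on both days. In LAN-1 the effect was called different for 2 members, IGFBP5 and IGFBP2, where 0.539% of genes were called. Both effects in LAN-1 were higher at day 5 than at day 2, as were those of 0.430% of genes. For IGFBP2 in LAN-1 the difference was 0.98 ± 0.26 (adjusted p = 0.0451). It lost its call without any LAN-1 library other than DMSO day 5 replicate 2 and GSK126 day 5 replicate 1, and without Kelly GSK126 day 5 replicate 1 (adjusted p = 0.0529 to 0.325).

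Under GSK126, day 5 was also set directly against day 2. In Kelly 4 members were called, where 2.94% of genes were (2.00% higher and 0.944% lower): INSR and IGFBP5 (1.20 ± 0.12, adjusted p = 4.77e-13) were higher at day 5, and IGF2 (-0.95 ± 0.12, adjusted p = 1.34e-09) and IGFBP2 (-0.49 ± 0.14, adjusted p = 0.0248) were lower. In LAN-1 5 members were called, all higher at day 5, where 1.22% of genes were (0.877% higher and 0.346% lower): IGFBP2 (1.01 ± 0.18, adjusted p = 0.000189), IGFBP5 (0.93 ± 0.15, adjusted p = 6.87e-06), IGF2 (0.62 ± 0.14, adjusted p = 0.00615), INSR (0.48 ± 0.13, adjusted p = 0.0357) and IGF1R (0.44 ± 0.09, adjusted p = 0.00393). Leaving out a library ended the call of IGFBP2 in Kelly for any of the 4 GSK126 libraries (adjusted p = 0.0704 to 0.342), and DESeq2 did not call it either (adjusted p = 0.366). In LAN-1 it ended the call of IGF2 without GSK126 day 2 replicate 1 or day 5 replicate 2 (adjusted p = 0.158 and 0.219). There it also ended the call of INSR without either GSK126 library of day 2 or without day 5 replicate 2 (adjusted p = 0.136 to 0.317), and that of IGF1R without day 2 replicate 2 (adjusted p = 0.0753). The INSR call in LAN-1 was also lost in DESeq2 (adjusted p = 0.163).

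Between the days in DMSO, 1 member was called in each line. In Kelly, IGF2 was higher in DMSO at day 5 than at day 2 (0.49 ± 0.10, adjusted p = 0.00388), the only member called, where 0.438% of genes were called. At day 2, DMSO replicate 1 had 258 CPM and replicate 2 had 376 CPM, and the call was lost without replicate 1 of day 2 (0.27, adjusted p = 0.551) or of day 5 (0.38, adjusted p = 0.4). In LAN-1, IGFBP4 was lower in DMSO at day 5 (-0.76 ± 0.20, adjusted p = 0.0445), the only member called, where again 0.438% of genes were. That call was lost in DESeq2 (adjusted p = 0.46), and without any LAN-1 DMSO library the adjusted p was 0.0901 to 0.742.

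The lines in DMSO differed in most of the axis, as they did in most genes. At day 2, 7 of 9 members were called, where 55.3% of genes were. IGF2, IGFBP2 and IGFBP4 were higher in Kelly, as were 27.7% of genes, and INSR, IGF1R, IGF2R and IRS2 were lower, as were 27.6%. At day 5 it was 8 of 9, where 55.6% of genes were called, 28.0% higher and 27.6% lower in Kelly. These were the 7 of day 2, each in the same direction, and IGFBP5, which was higher in Kelly (1.06 ± 0.15, adjusted p = 1.27e-09). The difference was 1.40 ± 0.15 for IGFBP2 (adjusted p = 1.61e-14), 1.73 ± 0.17 for IGFBP4 (adjusted p = 5.44e-16) and -0.87 ± 0.18 for IRS2 (adjusted p = 1.11e-05) at day 5. For IRS2 at day 2 it was -0.52 ± 0.18 (adjusted p = 0.00802), and that call was lost without Kelly DMSO day 2 replicate 2 (adjusted p = 0.0859) or LAN-1 DMSO day 2 replicate 1 (adjusted p = 0.118), and in DESeq2 (adjusted p = 0.0642). IRS1 was not called on either day (-0.19 ± 0.24 and 0.21 ± 0.27, adjusted p = 0.532 and 0.511).

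Other genes of the axis were taken from lists, whose counts at day 5 stand beside 3.30% higher and 1.60% lower of all tested genes in Kelly, and 2.45% higher and 1.21% lower in LAN-1. Of 19 other ligands, binding proteins and their proteases, 6 were tested, and IGF1 had 0 counts in every library. In Kelly at day 5, 1 was called higher and 1 lower, and in LAN-1 1 was called higher and 0 lower. IGFBP3, the main carrier of IGFs in blood, had 56.0 ± 7.83 CPM in GSK126 libraries and 10.3 ± 5.13 CPM in DMSO libraries of Kelly (2.37 ± 0.27, adjusted p = 8.22e-12). In LAN-1, IGFBP3 had 20 counts with GSK126 and 2 with DMSO, a ratio of 11.2 (95% counting interval 2.73 to 99.2, adjusted p = 0.00376). Leaving out either LAN-1 DMSO library of day 5 or GSK126 replicate 2 ended that call (adjusted p = 0.0573 to 0.0996), and DESeq2 gave it no adjusted p. IGFBPL1, a protein related in sequence to the IGF binding proteins, had 346 ± 2.84 CPM in GSK126 libraries and 438 ± 9.31 CPM in DMSO libraries of Kelly (-0.34 ± 0.09, adjusted p = 0.0138). That call was lost without DMSO replicate 2 or either GSK126 library (adjusted p = 0.0985 to 0.159) and in DESeq2 (adjusted p = 0.099).

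Of 32 adaptors and phosphatases that act at the receptors, 26 were tested. In Kelly at day 5, 2 were called higher and 3 lower, against 4.90% of all genes in either direction, with a median of 0.04 over the 26. The docking protein gene GAB2 fell (98.0 ± 1.82 CPM with GSK126 and 151 ± 3.59 CPM with DMSO, -0.63 ± 0.13, adjusted p = 0.000477). The docking protein gene DOK4 rose (0.42 ± 0.10, adjusted p = 0.00329), as did ENPP1, an enzyme that can inhibit the insulin receptor (1.08 ± 0.27, adjusted p = 0.00473). The other 2, named after their values were seen, were SHC1 (-0.39 ± 0.11, adjusted p = 0.0122) and SH2B2, with 2 counts under GSK126 and 23 under DMSO (ratio 0.103, 95% counting interval 0.0117 to 0.415, adjusted p = 0.0142). GAB2 was called in every alternative, and the other 4 each lost their call in DESeq2 (adjusted p = 0.0658 to 0.326). DOK4 also lost it without the first replicate of either group (adjusted p up to 0.207), and SH2B2 without the other replicate of either group (up to 0.285). ENPP1 lost it if DMSO replicate 1 or GSK126 replicate 2 was dropped (up to 0.139), and SHC1 if either DMSO library or GSK126 replicate 2 was (up to 0.227).

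Of the same 26 in LAN-1 at day 5, 3 were called higher and 0 lower, against 3.66% of all genes in either direction, with a median of 0.01. SHC3, a SHC adaptor of neurons, had 35.7 ± 4.03 CPM in GSK126 libraries and 9.99 ± 1.32 CPM in DMSO libraries (1.82 ± 0.31, adjusted p = 1.02e-05). DOK4 rose again (0.40 ± 0.10, adjusted p = 0.00534), and so did SH2B3, an adaptor that dampens kinase signalling (0.90 ± 0.24, adjusted p = 0.0158). The calls of DOK4 and SH2B3 were lost without DMSO replicate 1 (adjusted p = 0.375 and 0.322) or GSK126 replicate 2 (adjusted p = 0.123 and 0.109). DESeq2 called DOK4 and gave SHC3 and SH2B3 no adjusted p.

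Of 38 genes of PI3-kinase, AKT and mTOR signalling, 34 were tested. In Kelly at day 5, 3 were called higher and 1 lower, against 4.90% of all genes, with a median of 0.00. PIK3R1, the regulatory subunit p85-alpha that binds IRS proteins, had 162 ± 24.3 CPM in GSK126 libraries and 82.5 ± 14.4 CPM in DMSO libraries (0.99 ± 0.14, adjusted p = 2.51e-08). TSC1, a subunit of the complex that restrains mTOR, rose by 0.45 ± 0.13 (adjusted p = 0.0209). EIF4EBP1, a repressor of translation that mTOR inactivates, named after its value was seen, fell (-0.46 ± 0.14, adjusted p = 0.0388). TSC1 and EIF4EBP1 lost their calls without any 1 of the 4 Kelly libraries of day 5 (adjusted p = 0.0622 to 0.295) and in DESeq2 (adjusted p = 0.229 and 0.238). LAN-1 at day 5 had 1 called gene of the 34, against 3.66% of all genes. It was again PIK3R1, which rose, with 87.8 ± 10.4 CPM in GSK126 libraries and 56.2 ± 9.61 CPM in DMSO libraries (0.68 ± 0.18, adjusted p = 0.0103). It lost that call without DMSO replicate 1 (adjusted p = 0.326) or GSK126 replicate 1 (adjusted p = 0.164), and in DESeq2 (adjusted p = 0.059).

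Of 24 genes that FOXO factors activate when insulin or IGF signalling is low, 19 were tested. In Kelly at day 5, 1 was called higher and 1 lower, against 4.90% of all genes, with a median of 0.08. SESN3, a sestrin, rose (541 ± 45.7 CPM with GSK126 and 423 ± 16.6 CPM with DMSO, 0.36 ± 0.09, adjusted p = 0.00645), and the transcription factor gene KLF15 fell (7.51 ± 0.184 CPM with GSK126 and 20.5 ± 0.611 CPM with DMSO, -1.43 ± 0.36, adjusted p = 0.00607). Both lost their calls without DMSO replicate 2 (adjusted p = 0.162 and 0.0537) or GSK126 replicate 2 (adjusted p = 0.284 and 0.0802), and KLF15 also without GSK126 replicate 1 (adjusted p = 0.0779). In DESeq2 neither was called (adjusted p = 0.0732 for SESN3 and 0.149 for KLF15). Neither edgeR nor DESeq2 called any in LAN-1 at day 5, 0 of the 19 (2 at an unadjusted p under 0.05). At day 2, edgeR and DESeq2 called 0 genes of any of these lists in either line. At an unadjusted p under 0.05, the lists held 1 to 3 genes each in Kelly and 0 to 4 in LAN-1 at day 2.

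Marker genes of cell states moved in Kelly at day 5 beside the changes in IGF2, INSR and IGFBP5. The summed level of the 9 adrenergic neuroblastoma markers, which include TH, was 4173 to 4184 CPM in GSK126 libraries and 5910 to 6080 CPM in DMSO libraries, and 6 of the 9 were called lower, against 1.60% of all genes. The summed level of the 8 mesenchymal or fibroblast markers was 332 to 347 CPM in GSK126 libraries and 155 to 167 CPM in DMSO libraries, with 3 of 6 tested called higher, against 3.30% of all genes, and COL1A2 at 0 in both groups. The adrenergic sum in LAN-1 at day 5 was 3962 to 4440 CPM with GSK126 and 4096 to 4150 CPM with DMSO, and the mesenchymal sum was 111 to 130 CPM with GSK126 and 82.9 to 88.2 CPM with DMSO. There 1 of the 9 adrenergic and 1 of the 6 tested mesenchymal markers were called higher and 0 lower, against 2.45% and 1.21% of all genes. In Kelly at day 2, the mesenchymal sum was 156 to 159 CPM with GSK126 and 104 to 127 CPM with DMSO. There edgeR called 1 of the 6 tested mesenchymal markers higher, against 0.169% of all genes, and DESeq2 also called 1. Of the 9 adrenergic markers, 0 were called in Kelly at day 2. The mesenchymal sum in LAN-1 at day 2 was 96.7 to 104 CPM with GSK126 and 73.6 to 78.1 CPM with DMSO. There edgeR called 0 of the 6 tested mesenchymal markers. The part of these shifts in the results was not tested. Among the markers of other cell types, S100B and FABP7 (Schwann cell or glia), CD3E and HBB (haematopoietic) and CDH1 (epithelial) had 0 counts in every library. The summed levels in Kelly at day 5 were 8.2 to 11.5 CPM with GSK126 and 3.74 to 4.86 CPM with DMSO for Schwann cell or glia markers, and 2.29 to 3.28 CPM with GSK126 and 1.22 to 2.24 CPM with DMSO for endothelial markers. They were 2.46 to 4.58 CPM with GSK126 and 2.99 to 4.86 CPM with DMSO for epithelial markers, and 0 CPM with GSK126 and 0 to 0.608 CPM with DMSO for haematopoietic markers.

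The genes most like IGF2 and INSR were ranked by Pearson's r of log2 CPM, centred within each line, over the 16 libraries and among genes of at least 5 CPM on average. These libraries share their treatments and their depth, so r is a description. For IGF2 they were SLC7A5, an amino acid transporter (r = 0.963), TTLL12, a tubulin ligase-like protein (r = 0.901), and CARHSP1, an RNA-binding protein (r = 0.894). SLC7A5 in Kelly at day 5 had a mean of 195 CPM with GSK126 and 347 CPM with DMSO, and in LAN-1 at day 5 358 CPM with GSK126 and 315 CPM with DMSO. For INSR they were the receptor gene NOTCH2 (r = 0.982), the scaffold protein gene SASH1 (r = 0.979) and the tubulin gene TUBB4A (r = 0.974). SASH1 had means of 15.9 CPM with GSK126 and 0.374 CPM with DMSO in Kelly at day 5, and 80.5 CPM with GSK126 and 79.6 CPM with DMSO in LAN-1 at day 5.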

How the data were processed

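The authors deposited whole-read counts per gene symbol for all 16 libraries, with no normalization. FastQC, TopHat2, featureCounts and GRCh37 (hg19) were used, per the submitters' processing notes. Versions, the annotation and the strand setting are not given in the sources used here. Unmatched strand or shared reads could mix overlapping genes such as IGF2 and IGF2-AS.

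Counts were fitted with edgeR 4.0.16 in R 4.3.3: filterByExpr at a minimum count of 10 (11863 of 25728 genes kept), TMM factors of 0.9774 to 1.026, and a quasi-likelihood model, robust and with a mean for each of the 8 groups, with 8 residual degrees of freedom. P-values were adjusted by Benjamini-Hochberg over all tested genes. The common biological coefficient of variation was 5.31%. Each SE was taken as the size of the log2 fold change over the square root of the test's F statistic. Confidence intervals of log2 fold changes are at 95%, from the t quantile at 8 degrees of freedom. The p-values rest on more degrees of freedom, so an interval can include 0 at an unadjusted p under 0.05. Where a group had 0 counts, folds are set against a floor of 3 counts over the group, with the counts of the other group taken as observed. With 1 to 3 counts, exact counting intervals are given. No fold is given where both groups had 3 counts or fewer. The procedure was tested on data simulated with a single spread for all genes, which does not measure its error rate in these libraries. Merged exon lengths and GRCh37 positions came from GENCODE 44 lifted to that build.

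The 10 members, the gene lists and the rule for named genes (the members, up to 3 called genes per list and line with the smallest adjusted p at day 5, and the 3 genes most like IGF2 and INSR) were chosen with earlier results of these data known. Day 5 against day 2 under GSK126, and IGF2 summed with its overlapping genes, were added after seeing the data. Alternatives were DESeq2 1.42.0, other scalings and filters, a fit within each line, a replicate block and leaving out each library. Some genes counted in the lists are not reported here by name.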

Additional observations from a re-analysis of the deposited data

Results flagged for a closer look

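In 7 results the GSK126 effect on a member differed between lines or between days by a test of the difference itself, each as a log2 difference from edgeR over n = 2 libraries per group. Between Kelly and LAN-1 at day 5 the difference was -1.81 ± 0.18 for IGF2 (adjusted p = 1.79e-13) and -1.26 ± 0.22 for IGFBP2 (adjusted p = 4.13e-05). For INSR the fitted difference between the lines was 7.35 ± 0.96 (adjusted p = 1.18e-08), a size that depends on the prior count because the DMSO libraries of Kelly had 0 counts. Between day 5 and day 2 in Kelly the difference was -1.44 ± 0.16 for IGF2 (adjusted p = 2.08e-11) and 0.79 ± 0.19 for IGFBP5 (adjusted p = 0.0207). Between day 5 and day 2 in LAN-1 it was 0.98 ± 0.26 for IGFBP2 (adjusted p = 0.0451) and 1.36 ± 0.22 for IGFBP5 (adjusted p = 3.21e-05).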

How the results depend on the processing

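No direction reversed under any alternative, over members at an unadjusted p under 0.05 and called genes of the lists. IGF2, INSR and IGFBP5 in Kelly at day 5, IGFBP5 in LAN-1 at day 5 and the 3 differences between lines at day 5 stayed called in every alternative run. In the fit to Kelly alone, INSR passed the filter only through its GSK126 libraries of day 5, where it was high. That fit is therefore no separate support for its call. In DESeq2 the number of members called fell to 1 for the day difference in Kelly (2 in edgeR), to 1 for that in LAN-1 (2 in edgeR), and to 0 for day 5 against day 2 in DMSO in Kelly and in LAN-1 (1 each in edgeR). Smaller shifts in DESeq2 were 3 members in Kelly at day 5 (4 in edgeR), 6 between lines in DMSO at day 2 (7 in edgeR), and 3 in Kelly and 4 in LAN-1 for day 5 against day 2 under GSK126 (4 and 5 in edgeR). The LAN-1 DMSO count was also 0 with DESeq2's size factors in edgeR, with library totals only, with no filter and with the replicate block. The same replicate numbers did not pair the samples: deviations of same-numbered libraries correlated between -0.088 and 0.067. With the replicate block, the day difference in LAN-1 had 1 member called in place of 2, day 5 against day 2 under GSK126 in LAN-1 had 4 in place of 5 (INSR, adjusted p = 0.0562), the lines in DMSO at day 2 had 6 in place of 7 (IRS2, adjusted p = 0.0653), and the members called in Kelly and in LAN-1 at day 5 numbered 4 each, as without it.

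Leaving out each library gave 3 to 5 members called in Kelly at day 5 and 1 to 5 in LAN-1 at day 5. It gave 1 to 3 for the day difference in Kelly, 1 to 4 for that in LAN-1, 0 to 1 for each DMSO comparison of days, and 3 to 5 for day 5 against day 2 under GSK126 in LAN-1. In DESeq2 the adaptor list had 1 call in each line at day 5 (5 in Kelly and 3 in LAN-1 in edgeR), the PI3-kinase list 1 in Kelly and 0 in LAN-1 (4 and 1 in edgeR), the list of other ligands and binding proteins 1 and 0 (2 and 1 in edgeR), and the FOXO list 0 in Kelly (2 in edgeR). Genes to which DESeq2 gave no adjusted p count as not called in these numbers. With duplicates at 912095 to 1666190 counts, genes with few reads have wide intervals, and INSR in Kelly rests on 46 counts at day 5.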

Other observations

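Between the lines in DMSO, many genes of the wider pathway differed, as did genes in general, of which 55.3% were called at day 2 and 55.6% at day 5. Of the 26 tested adaptors and phosphatases, 10 were higher and 9 lower in Kelly than in LAN-1 at day 2, and of the 34 tested genes of PI3-kinase, AKT and mTOR signalling 12 were higher and 11 lower. Of the 19 tested genes that FOXO factors activate, 2 were higher and 7 lower in Kelly at day 2, and 3 were higher and 9 lower at day 5, with medians of -0.30 and -0.42 on the log2 scale against 0.01 and 0.02 over all genes. Of the 10 tested neighbours of IGF2, 3 were higher and 5 lower in Kelly at day 2, and 3 were higher and 6 lower at day 5. ENPP1 had 16.4 ± 4.24 CPM in Kelly with DMSO at day 5 and 0 counts in LAN-1 with DMSO at day 5.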
